A study of Mus musculus with 24 samples.

Results

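The effect of Adriamycin on RNA levels was followed in wild-type mouse embryonic fibroblasts (MEFs), the adherent connective-tissue cells that grow out of a minced embryo. These cells make up 6 of the 24 samples of the series: 3 were given Adriamycin (doxorubicin) at 0.1 µg/ml for 24 h and 3 were given vehicle (DMSO), all at passage 2. MEFs labelled as Mof knockout were given the same 2 treatments, with 3 samples each, and serve here as a comparison. MOF, encoded by Kat8, is a histone H4 acetyltransferase. The labels name no strain, embryo age or way in which Mof was removed, and do not tell whether 3 samples were 3 cultures or 1 culture split, so p-values reflect the spread among these samples alone, and that spread may be technical.

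The values come from the authors' deposited tables, each of which sets knockout against wild type under 1 treatment and holds a mean normalised read count and a log2 fold change, with no value per sample. The wild-type mean was rebuilt from these. Of 43626 listed genes, the 11099 whose mean count over both genotypes reached 100 in either table were kept. The drug ratio of a gene is the log2 of its wild-type mean with Adriamycin over that with vehicle, less the median over the genes kept, which was 0.12. A value of 0 therefore means no change relative to the median gene, and 1 means 2-fold higher. The tables were normalised apart, so the drug ratio has no test. An approximate error, taken from the deposited standard errors with wild type and knockout assumed to vary alike, follows each ratio after the sign ±. Its median was 0.13, with quartiles of 0.10 and 0.17. Depth per library is unknown. Summed over all listed genes, the wild-type means came to 20920490 with vehicle and 20605879 with Adriamycin.

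Doxorubicin slides between DNA bases and traps topoisomerase II on the strand breaks it makes. The damage kinases ATM and ATR then stabilise p53, which switches on genes for arrest, repair and death. One of them, p21 (Cdkn1a), inhibits cyclin-dependent kinases, and the pocket proteins RB, p107 and p130 then hold E2F and the MuvB complex in a repressive state on the promoters of cell cycle genes. Damaged fibroblasts are also known to enter senescence, a lasting arrest with enlarged lysosomes, secreted factors and, in some settings, interferon signalling set off by DNA in the cytosol.

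The main pattern in wild-type MEFs was a lower level of transcripts for DNA replication and mitosis, together with higher levels of p53 targets, interferon-stimulated genes, histone genes and lysosomal genes. Of the genes kept, 995 (8.96%) were at least 2-fold higher with Adriamycin and 922 (8.31%) were at least 2-fold lower. At least 4-fold differences were seen for 306 genes above and 295 below the median gene, and at least 16-fold differences for 53 above and 88 below. The middle of the distribution was narrow, with quartiles of -0.40 and 0.42. Genes at the threshold included Pld3 (1.001) and Stab1 (1.002) just inside and Shisa5 (0.998) and Bace2 (0.996) just outside on the high side. On the low side Fpgs (-1.001) lay just inside and Cstf2 (-0.999) just outside. Of the 995 higher genes, 359 had a mean count under 100 with vehicle, and of the 922 lower genes 302 had one under 100 with Adriamycin. Those genes were kept only through the treatment in which they were high and so had to differ.

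**Figure D1:**
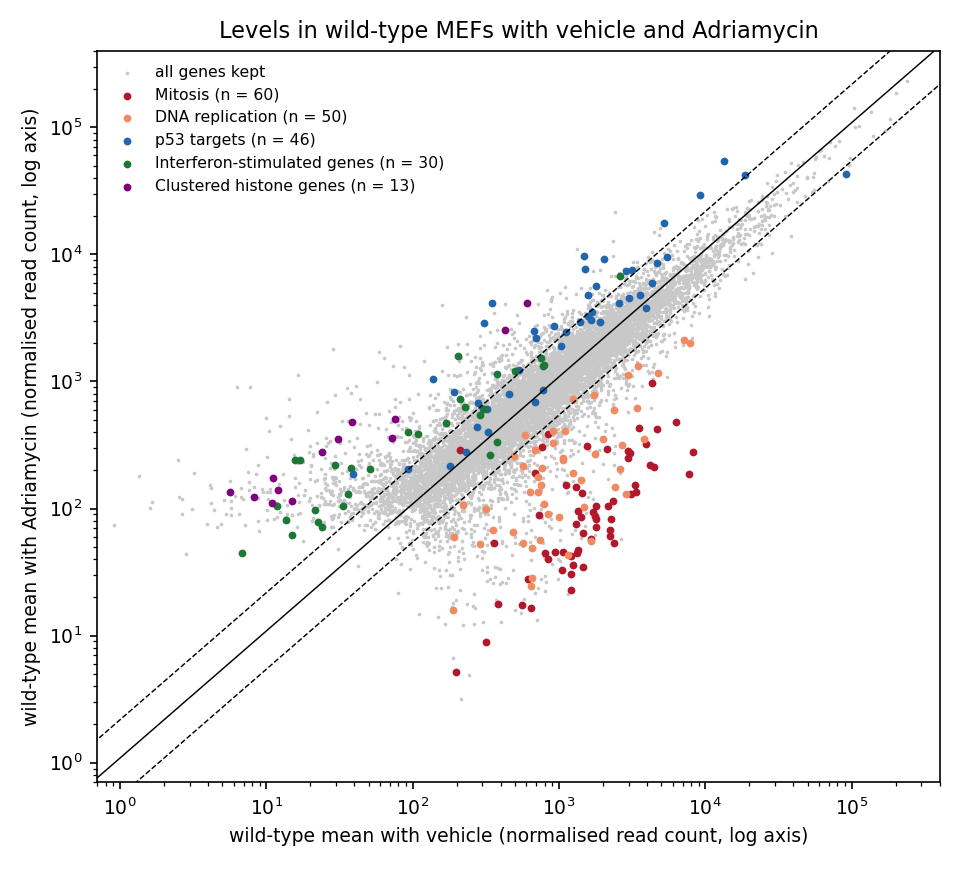
Mean of the 3 wild-type samples with vehicle (x axis) against that with Adriamycin (y axis), in normalised read counts on log axes; each point is 1 of the 11099 genes kept, colours mark 5 gene lists, the solid line is the median ratio and the dashed lines are 2-fold either side. Points of the mitosis and replication lists lie below the lower dashed line (59 of 60 and 48 of 50 members), and all 13 histone genes lie above the upper one. Of these lists, 35 mitosis and 16 replication genes were kept only through vehicle, and 8 histone genes only through Adriamycin.

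The labelled cell type was checked first. All 14 fibroblast and mesenchymal markers were among the genes kept, and their wild-type means summed to 728306 with vehicle and 596636 with Adriamycin. The collagen gene Col1a1 stood at 184051 with vehicle and 115661 with Adriamycin (-0.79 ± 0.14). The 18 macrophage and leukocyte markers summed to 3166 and 5836, with 13 kept, none listed at 0 in both tables and 4 at least 2-fold higher. Csf1r, the receptor that macrophages need for survival, was at 365 and 430.3 (0.12 ± 0.25), while the surface marker Emr1 (F4/80) was at 106 and 410.3 (1.83 ± 0.24). Endothelial, epithelial, muscle, neural and cartilage or bone markers were kept for 3 of 12, 4 of 13, 2 of 18, 5 of 13 and 6 of 14 genes. In that order, their wild-type means summed to 4423, 1407, 3563, 1679 and 16849.8 with vehicle. With Adriamycin the sums were 5162, 3593, 2101, 2008 and 9251. In these bulk samples, fewer cells of a type and less RNA per cell cannot be told apart. Kat8 itself (chromosome 7, 127912516 to 127925837, GRCm38) had a wild-type mean of 255 with vehicle and 330.1 with Adriamycin, and a knockout mean of 65.7 and 101. The direction of the deposited fold changes was read from Kat8, so this does not check the labels. Its wild-type drug ratio was 0.25 ± 0.18, and none of the 12 genes of the MOF complexes reached 2-fold either way.

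Targets of p53 were higher with Adriamycin. Of 49 listed, 46 were kept, 23 were at least 2-fold higher (against 8.96% of all genes kept) and 1 was at least 2-fold lower. Their median drug ratio was 0.99. Of the 46, 1 was kept only through Adriamycin. Cdkn1a, the arrest gene p21 (ENSMUSG00000023067.9, chromosome 17, 29090976 to 29100727), had a wild-type mean of 9131 with vehicle and 29089 with Adriamycin, a ratio of 1.55 ± 0.09. Mdm2, the ubiquitin ligase that removes p53, went from 5222 to 17763 (1.65 ± 0.10). These were already among the more abundant transcripts before the drug was given. The highest ratios of the list were those of Perp, a desmosomal membrane protein linked to death, at 349 and 4131 (3.44 ± 0.35), Dcxr, a carbonyl reductase, at 308 and 2875 (3.10 ± 0.12), the death receptor Fas at 138 and 1044 (2.80 ± 0.15), and Trp53inp1 at 1475 and 9631 (2.59 ± 0.14). Fas and Dcxr thus ended 6.96-fold and 8.60-fold higher relative to the median gene. Among effectors of mitochondrial death, Pmaip1 (NOXA) was at 1514 and 7639.8 (2.21 ± 0.21) and Bbc3 (PUMA) at 282 and 673 (1.13 ± 0.14), whereas the pore former Bax was at 2992 and 4499 (0.47 ± 0.08). The long noncoding RNA Trp53cor1 was at 39.2 and 188 (2.14 ± 0.27). Its value is uncertain, since exons on the opposite strand cover 44.1% of its exonic bases and no source used here tells whether reads were counted by strand. Trp53 itself was at 3930.4 and 3801 (-0.17 ± 0.09), a ratio that turned to 0.19 when ribosomal protein genes were taken as the centre and to 0.07 with means over both genotypes.

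The promoter of Cdkn1a is shown because it carries the match for the p53 half-site, an element of which p53 binds pairs. RefSeq promoters (GRCm38.p6, 250 bases before to 50 after each start, 300 in all) could be matched to 8656 of the 11099 genes kept, giving 11105 promoters, and each motif was searched on both strands. The upstream start of Cdkn1a (chr17:29090729-29091028, plus strand, 5′ to 3′) held 2 matches, in capitals, that begin 73 and 51 bases before the start, and its other listed start (chr17:29093519-29093818) held 0.
Cdkn1a: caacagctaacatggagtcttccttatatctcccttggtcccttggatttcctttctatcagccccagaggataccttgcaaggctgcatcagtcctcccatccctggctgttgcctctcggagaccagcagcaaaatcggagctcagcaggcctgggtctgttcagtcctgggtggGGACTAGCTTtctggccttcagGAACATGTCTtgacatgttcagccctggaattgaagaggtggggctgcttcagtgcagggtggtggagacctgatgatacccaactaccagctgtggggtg
A half-site was present in 22.9% of 48 promoters of p53 targets and in 7.04% of all promoters of genes kept. The share was not particular to p53 targets. It was 23.3% of 30 promoters of interferon-stimulated genes and 21.7% of 23 of sterol synthesis genes. For mitosis, replication and recombination genes it was 9.62%, 9.80% and 11.5%. Among promoters of genes at least 2-fold higher the share was 9.80%, and among those at least 2-fold lower it was 5.98%. A match is a string of letters and not a measured binding site.

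Genes of mitosis stood lowest of the 28 pathway lists. All 60 members were kept, and 59 were at least 2-fold lower with Adriamycin (against 8.31% of all genes kept), with a median drug ratio of -4.50. Because 35 of them had a mean count under 100 with Adriamycin and were kept through the vehicle table, the count with a minimum of 100 in both tables was 24. Plk1, the kinase that drives mitotic entry and exit (chromosome 7, 122159439 to 122169873), had a wild-type mean of 2392 with vehicle and 54.0 with Adriamycin (-5.59 ± 0.29), which is 48.2-fold lower. Cdk1, the kinase of mitotic entry, was at 3301 and 154 (-4.55 ± 0.20), and its partners Ccnb1 and Ccnb2 had ratios of -4.91 ± 0.30 and -5.44 ± 0.36. Mki67, the proliferation marker Ki-67, went from 7765 to 188 (-5.49 ± 0.39). Kinetochore and spindle genes were as low: Nuf2, of the NDC80 complex, was at 1208 and 23.0 (-5.84 ± 0.37), and the microtubule depolymerase Kif2c at 1469 and 34.4 (-5.54 ± 0.36). The lowest drug ratio of any gene kept was that of Ska1, a kinetochore protein outside the list, at 214 and 3.19 (-6.19 ± 0.43). The exception was Pttg1 (securin), the inhibitor of separase, at 211 and 291 (0.35 ± 0.16). Spc25, Fam83d and Bora were the next nearest to 0, at -1.43 ± 0.15, -1.23 ± 0.17 and -1.96 ± 0.17. The Adriamycin mean of Ska1 is a few counts, so its ratio is known only roughly.

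The promoters of Cdk1, Ccnb2 and Plk1 are shown because they hold the CCAAT box (CCAAT, bound by NF-Y) and the cell cycle genes homology region (CHR, TTTGAA, bound by MuvB) that are known from mitotic promoters. They are from chr10:69352863-69353162 (minus strand), chr9:70421505-70421804 (minus strand) and chr7:122159185-122159484 (plus strand), written 5′ to 3′ along the gene with both motifs in capitals on either strand.
Cdk1: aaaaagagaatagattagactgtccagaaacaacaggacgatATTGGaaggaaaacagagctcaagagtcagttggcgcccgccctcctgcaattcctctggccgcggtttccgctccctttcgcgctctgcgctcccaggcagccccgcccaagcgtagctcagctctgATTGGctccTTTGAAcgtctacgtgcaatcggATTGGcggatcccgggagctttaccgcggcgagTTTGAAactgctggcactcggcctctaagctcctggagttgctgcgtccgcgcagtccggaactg
Ccnb2: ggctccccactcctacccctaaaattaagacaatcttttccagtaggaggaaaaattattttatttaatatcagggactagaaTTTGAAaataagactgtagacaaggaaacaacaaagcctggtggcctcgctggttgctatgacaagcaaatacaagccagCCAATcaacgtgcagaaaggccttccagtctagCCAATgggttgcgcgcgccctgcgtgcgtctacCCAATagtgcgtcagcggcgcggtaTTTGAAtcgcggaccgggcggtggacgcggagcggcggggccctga
Plk1: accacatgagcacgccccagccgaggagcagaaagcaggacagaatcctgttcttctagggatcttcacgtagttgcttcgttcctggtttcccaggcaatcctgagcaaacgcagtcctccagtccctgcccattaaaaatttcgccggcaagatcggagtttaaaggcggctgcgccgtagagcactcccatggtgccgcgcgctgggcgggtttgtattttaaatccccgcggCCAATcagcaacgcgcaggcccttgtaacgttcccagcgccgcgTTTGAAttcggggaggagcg
In Ccnb2, CCAAT boxes began 87, 54 and 21 bases before the start and a CHR lay 5 bases after it. In Plk1 the CCAAT box began 14 bases before the start and the CHR 31 bases after it. Of 52 promoters of the mitosis list, 78.8% held CCAAT, 71.2% held TTTGAA and 63.5% held both, against 37.4%, 11.6% and 4.57% of all promoters of genes kept. Promoters of genes at least 16-fold lower held both in 45.5% of 77 cases, while those at least 2-fold lower did in 12.2% of 853 and those at least 2-fold higher in 4.02% of 969.

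DNA replication genes were lower with Adriamycin as a group. All 50 were kept, 48 were at least 2-fold lower (against 8.31% of all genes kept), and the median drug ratio was -2.52. Of the 50, 16 were kept only through vehicle and so had to be lower. Mcm5, a subunit of the replicative helicase, went from a wild-type mean of 2433 to 147 (-4.17 ± 0.22). Cdc6, which loads that helicase, was at 646 and 24.8 (-4.83 ± 0.32), and Tk1, the thymidine kinase of S phase, at 1656 and 55.9 (-5.01 ± 0.27). Subunits of the origin complex and of the GINS complex were nearer the median gene, with Orc2 at 1256 and 732 (-0.90 ± 0.11) and Gins4 at 584 and 379 (-0.75 ± 0.12). Of Orc2's exonic bases, 29.8% are covered by exons on the opposite strand. The promoter of Mcm5 (chr8:75109259-75109558, plus strand) is shown for its E2F site, searched as TTTCCCGC, TTTCGCGC, TTTGCCGC or TTTGGCGC on either strand. It held 2 matches that overlap, beginning 153 and 149 bases before the start.
Mcm5: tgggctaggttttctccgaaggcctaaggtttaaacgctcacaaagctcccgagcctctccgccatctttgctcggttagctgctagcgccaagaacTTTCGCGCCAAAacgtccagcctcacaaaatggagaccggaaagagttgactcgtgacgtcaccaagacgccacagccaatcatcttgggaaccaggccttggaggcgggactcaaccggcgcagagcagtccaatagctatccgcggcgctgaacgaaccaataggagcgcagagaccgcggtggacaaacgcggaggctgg
An E2F site was found in 33.3% of 51 promoters of replication genes, in 7.69% of those of the mitosis list and in 4.03% of all promoters of genes kept. The CCAAT box and CHR occurred together in 7.84% of replication promoters.

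Regulators of cell cycle entry were split. Of 32 kept, 15 were at least 2-fold lower (against 8.31% of all genes kept). At least 2-fold higher were 3, a share near the 8.96% of all genes kept. Of the 32, 5 were kept only through vehicle, among them E2f8, Mybl2 and Ccne2, and that filter favours low ratios. The repressor E2f8 was at 807 and 22.5 (-5.29 ± 0.28) and the B-MYB gene Mybl2, which activates mitotic promoters with MuvB, at 1081 and 44.6 (-4.72 ± 0.25). Both E-type cyclins were low, Ccne1 at 1702 and 198 (-3.23 ± 0.14) and Ccne2 at 876 and 83.0 (-3.52 ± 0.23). The 3 higher genes were the retinoblastoma gene Rb1 at 433 and 1603 (1.77 ± 0.12), the p130 gene Rbl2 at 581 and 1297 (1.04 ± 0.11), and the inhibitor p15 (Cdkn2b) at 911 and 2217 (1.16 ± 0.12). They do not stand for all inhibitors of the cycle. Of 10 kept genes whose symbol begins with Cdkn, 2 were at least 2-fold higher and 3 lower, with a median of -0.37. Cdkn2a, which encodes p16 and p19ARF, was at 412 and 578 (0.37 ± 0.25). The growth factor target Myc was at 2490.2 and 1061 (-1.35 ± 0.16), while the cyclin D1 gene Ccnd1 was at 9871 and 12127 (0.18 ± 0.12), a ratio of -0.02 with means over both genotypes.

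Repair genes leaned lower in both lists. Of all genes kept, 8.31% were at least 2-fold lower and 8.96% higher. In homologous recombination and the Fanconi anaemia pathway, 34 genes were kept and 22 were at least 2-fold lower, with a median drug ratio of -2.68. Of these 34, 20 were kept only through vehicle and so had to be lower, and the count and the median rest mainly on them. With a minimum of 100 in both tables, 2 of the other 14 were at least 2-fold lower. Brca1 was at 644 and 68.1 (-3.36 ± 0.25), the nuclease Exo1 at 577 and 19.6 and Rad54l, which acts in strand exchange, at 369 and 19.1 (-4.39 ± 0.34). Within the same list, the structure-specific nuclease gene Mus81 was at 306 and 651 (0.97 ± 0.12), while the gene of its partner, Eme1, was at 266 and 16.5 (-4.13 ± 0.34). In damage signalling and end joining, 8 of 26 were at least 2-fold lower and 0 higher. Of the 26, 2 were kept only through vehicle, among them Chek1. The checkpoint kinase Chek1 was at 409.7 and 53.9 (-3.05 ± 0.21) and Wee1, which restrains CDK1, at 507 and 121 (-2.18 ± 0.20). Parp1, the main sensor of strand breaks, was at 2439.7 and 735 (-1.85 ± 0.11), whereas Parp3, which acts in end joining, was at 1603 and 3218 (0.88 ± 0.09).

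The targets of the drug itself parted, in a list of topoisomerases, efflux pumps and drug-metabolising enzymes. Of its 19 kept genes, 4 were at least 2-fold higher (against 8.96% of all genes kept) and 1 lower (against 8.31%). Of the 19, 3 were kept only through Adriamycin, among them Abcb1a, and that filter favours high ratios. Top2a, the topoisomerase II of proliferating cells (chromosome 11, 98992943 to 99024189), had a wild-type mean of 8239 with vehicle and 277 with Adriamycin (-5.02 ± 0.21, 32.4-fold lower). Top2b, the form that resting cells also make, was at 4815 and 4206 (-0.32 ± 0.09), a ratio that turned to 0.05 with ribosomal protein genes as the centre. Top1, which nicks 1 strand, was at 3062 and 3028 (-0.14 ± 0.09), and its sign turned with each of 3 other centres, to 0.23 with ribosomal protein genes and to 0.01 with reference genes or equal sums. Among the efflux pumps that carry anthracyclines out of cells, Abcb1b was at 544 and 860.3 (0.54 ± 0.16) and Abcb1a at 15.1 and 89.1 (2.44 ± 0.39), with reads that these close paralogs can share. Abcc1 was at 5018 and 4261 (-0.36 ± 0.13). The quinone reductase Nqo1 was at 259.5 and 875 (1.63 ± 0.32).

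Clustered histone genes had the highest median of all lists, 3.41, and all 13 kept were at least 2-fold higher. Neither this count nor the median carries weight by itself. Of the 13, 8 were kept only through Adriamycin, and 49 of the 62 listed were not kept. Of those 49, 1 was at 0 in both tables, and 44 of the remaining 48 had a ratio above that of the median gene. Among members not kept of other lists, 14 of 17 interferon-stimulated, 9 of 9 epithelial, 7 of 9 endothelial, 6 of 8 neural and 5 of 5 macrophage genes did. So did 10 of 15 skeletal muscle, 7 of 14 inflammatory, 3 of 8 cartilage or bone and 1 of 4 signalling genes. The share over all genes not kept is not given here, so whether the histone genes exceed it cannot be told. Transcripts of replication-dependent histone genes normally end in a stem-loop in place of a poly(A) tail, and the libraries were enriched for poly(A). The linker histone gene Hist1h1c, kept in both tables, was at 608 and 4142 (2.65 ± 0.14), and Hist1h2bc at 430.0 and 2560.5 (2.45 ± 0.12). Hist1h3b was at 38.3 and 476 (3.51 ± 0.26) and Hist1h4h at 11.2 and 173 (3.83 ± 0.29). Summed over all 62, the wild-type means came to 1518 with vehicle and 10249 with Adriamycin. Copies of a histone class are nearly identical, so how reads were divided among them is uncertain. These genes were higher while the replication genes with which they are normally co-regulated were lower. RefSeq promoters could be matched to 0 of the 13.

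Interferon-stimulated genes were higher with Adriamycin in wild-type cells. Of 47 listed, 30 were kept, 3 of them only through Adriamycin. At least 2-fold higher were 23 (against 8.96% of all genes kept) and at least 2-fold lower 0, with a median of 1.67. The master regulator Irf7 (chromosome 7, 141262706 to 141266481) had a wild-type mean of 15.8 with vehicle and 239 with Adriamycin (3.80 ± 0.32). Usp18, the protease that removes ISG15 and dampens the receptor, was at 17.1 and 241 (3.70 ± 0.39), and Isg15 itself at 38.1 and 209.8 (2.34 ± 0.43). The peptide transporter Tap1 was the abundant case, at 204 and 1582 (2.83 ± 0.13). The transcription factor Stat2 had a ratio of 1.47. Eif2ak2 (PKR), which halts translation on double-stranded RNA, was at 782 and 1313 (0.63 ± 0.12). Irf1 and Ifit2 were not higher, at 337 and 266 (-0.46 ± 0.14) and at 378 and 334 (-0.30 ± 0.12). Over all 47 genes the wild-type means summed to 8637 and 21450.4. With means over both genotypes in place of the wild type, 3 of the 30 were at least 2-fold higher. Macrophage markers moved the same way, from 3166 to 5836 as given above, and their part in this result was not tested.

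The promoter of Isg15 (chr4:156200769-156201068, minus strand) is shown for the interferon-stimulated response element, searched as 2 copies of GAAA with 2 bases between them, on both strands. This motif was added after the values had been seen. There were 3 overlapping matches, beginning 78, 72 and 66 bases before the start, and they are written as 1 run of capitals.
Isg15: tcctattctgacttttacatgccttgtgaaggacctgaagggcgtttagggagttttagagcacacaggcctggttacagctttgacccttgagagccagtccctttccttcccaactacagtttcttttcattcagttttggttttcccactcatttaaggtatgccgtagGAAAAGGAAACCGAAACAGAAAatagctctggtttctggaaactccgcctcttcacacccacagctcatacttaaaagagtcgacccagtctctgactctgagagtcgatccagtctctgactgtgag
The element was found in 53.3% of 30 promoters of interferon-stimulated genes and in 2.85% of all promoters of genes kept. It was in 4.95% of promoters of genes at least 2-fold higher and in 2.46% of those at least 2-fold lower.

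Genes of inflammation and secretion lay on both sides, more often on the high one. Of 37 kept, 9 were at least 2-fold higher (against 8.96% of all genes kept). At least 2-fold lower were 4 (against 8.31%), and the median was 0.29. Of the 37, 3 were kept only through Adriamycin, among them Areg, and 0 only through vehicle, so the filter favoured the high side. The adhesion molecule Icam1 was at 119 and 1439.6 (3.47 ± 0.18), the EGF receptor ligand Areg at 28.8 and 158 (2.33 ± 0.33), and Igfbp3, a carrier of insulin-like growth factors, at 300.4 and 1424 (2.12 ± 0.13). On the low side, the chemokine Cxcl12 was at 8123 and 2183 (-2.02 ± 0.17) and Igfbp5 at 6186 and 1851 (-1.86 ± 0.51). Members that are often named together as the secretory programme of senescence therefore lay on both sides. Of 34 immediate early genes kept, 7 were at least 2-fold higher (against 8.96% of all genes kept) and 1 lower. Of the 34, 1 was kept only through Adriamycin, Nr4a3, and 1 only through vehicle. Fos was at 173 and 673 (1.84 ± 0.24), the orphan receptor Nr4a3 at 58.9 and 554 (3.11 ± 0.40), and Btg2, also a p53 target, at 1799 and 5637 (1.53 ± 0.09).

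Lysosomal genes were higher as a group, by less than the groups above. All 59 were kept, 10 were at least 2-fold higher (against 8.96% of all genes kept), 2 of the 59 were kept only through Adriamycin, 0 were lower, and 53 lay above the median gene, with a median of 0.58. The protease Ctsf was at 171 and 1883 (3.34 ± 0.14), the mannosidase Man2b1 at 1339 and 11038 (2.92 ± 0.12), the fucosidase Fuca1 at 895 and 4647 (2.26 ± 0.10) and the peptidase Tpp1 at 2349 and 9630.0 (1.92 ± 0.11). The cholesterol exporter Npc1 was at 1052 and 769.6 (-0.57 ± 0.10). Wild-type means of the list summed to 145197 and 290767. Cd68, counted in this list and among the macrophage markers, was at 152 and 470.0 (1.51 ± 0.20), and the part of the macrophage markers in the lysosomal values was not tested.

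**Figure D2:**
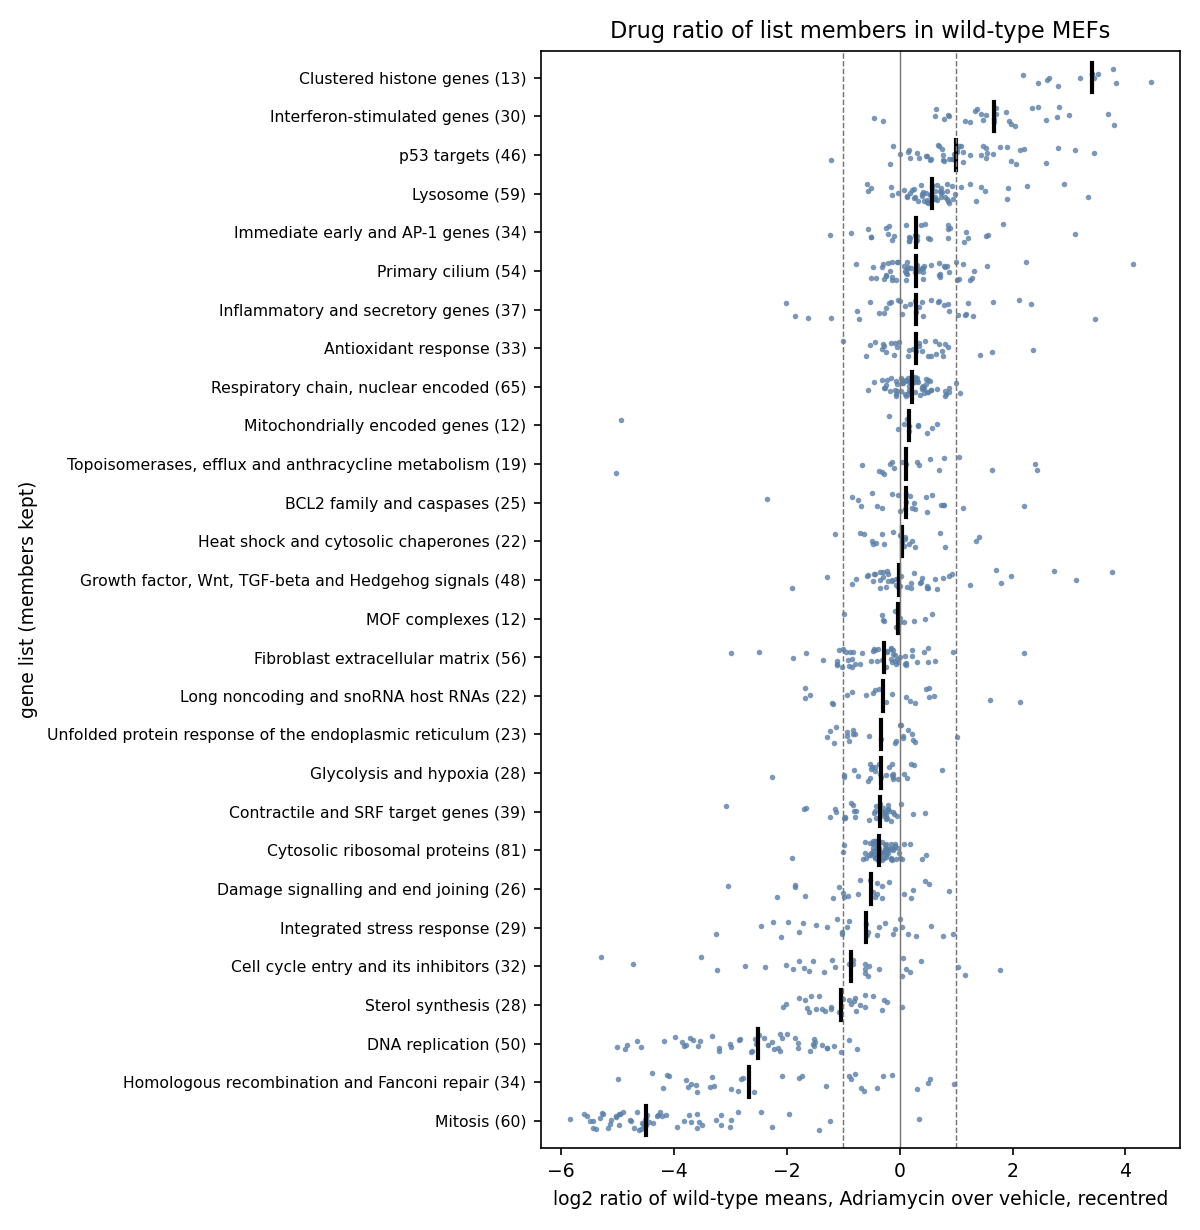
Drug ratio in wild-type MEFs (x axis, log2 of Adriamycin over vehicle, recentred on the median gene) of the members of 28 gene lists (y axis, with the number of members kept); each point is 1 gene, the black bar is the list's median and the dashed lines mark 2-fold. Medians run from -4.50 for mitosis to 3.41 for clustered histone genes, and most lists lie between the dashed lines. Of the 60 mitosis genes 35 were kept only through vehicle, and of the 13 histone genes 8 only through Adriamycin.

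Metabolic groups were lower or close to the median gene. Sterol synthesis genes, which SREBP2 controls, were at least 2-fold lower in 15 of 28 cases (against 8.31% of all genes kept). Their median was -1.05. The sterol carrier Stard4 was at 1296 and 336 (-2.07 ± 0.18) and Insig1, which retains SREBP in the endoplasmic reticulum, at 1777 and 478 (-2.01 ± 0.18). Of the 28, the 1 gene above 0 was Hsd17b7 (0.04 ± 0.18). In the integrated stress response, 12 of 29 were at least 2-fold lower (against 8.31% of all genes kept) and 0 higher. Their median was -0.59. The 4 lowest were the one-carbon enzyme gene Mthfd2 at 2392 and 273 (-3.25 ± 0.18), the amino acid transporter Slc7a5 at 5477 and 1092 (-2.45 ± 0.29), the pseudokinase Trib3 at 307 and 70.7 (-2.24 ± 0.25) and the serine hydroxymethyltransferase Shmt2 at 3674 and 927 (-2.11 ± 0.14). Above the median gene lay Ddit3 (CHOP), a factor linked to death, at 516 and 826 (0.56 ± 0.14), and Ppp1r15a (GADD34), which restores translation, at 834 and 1538 (0.76 ± 0.19). Cytosolic ribosomal protein genes had a median of -0.36, with 2 of 81 at least 2-fold lower and 76 below the median gene. The 2 were Rpl22l1, at 1549 and 449 (-1.91 ± 0.12), and Rpl3, at 14346 and 7765 (-1.01 ± 0.08).

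The respiratory chain and mitochondrial transcripts differed little. Of 65 nuclear-encoded genes, 1 was at least 2-fold higher, Ndufb6 at 1006 and 2291 (1.07 ± 0.10), 39.0% of whose exonic bases lie under exons of the opposite strand. The median of these 65 was 0.21. Of 12 mitochondrially encoded genes kept, 1 was at least 2-fold lower: mt-Co3 at 189 and 6.69 (-4.94 ± 0.63), with the largest approximate error of the 12. The most abundant of the 12, mt-Co1, was at 104105 and 141036 (0.32), and mt-Cytb at 61728 and 65765 (-0.03 ± 0.09). Nuclear copies of mitochondrial genes can share their reads, so the level of mt-Co3 is uncertain. Antioxidant genes had a median of 0.29, and 3 of 33 were at least 2-fold higher, a share near the 8.96% of all genes kept: the glutathione transferase Gsta4 at 80.1 and 450.3 (2.37 ± 0.25), Nqo1, and the sulfiredoxin Srxn1 at 1248 and 3631 (1.42 ± 0.25).

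Fibroblast matrix genes leaned lower, with 11 of 56 at least 2-fold lower (against 8.31% of all genes kept) and 1 higher. Their median was -0.29, and 0.08 when ribosomal protein genes were the centre. Of the 56, 2 were kept only through vehicle, among them Col15a1. The basement membrane collagen Col15a1 was at 407 and 55.7 (-2.99 ± 0.34), the elastin gene Eln at 1380.4 and 406 (-1.89 ± 0.37) and Col6a3 at 18651 and 6435 (-1.66 ± 0.42). The 1 higher was Col18a1, the source of endostatin, at 1099.8 and 5534 (2.21 ± 0.14). Contractile genes, targets of the factor SRF, had 6 of 39 at least 2-fold lower (against 8.31% of all genes kept) and 0 higher. Their median of -0.34 was 0.02 on the ribosomal protein centre. Myh11, the smooth muscle myosin, was at 2424 and 311 (-3.08 ± 0.24), and Acta2 at 169626 and 93311 (-0.98 ± 0.12). The primary cilium is the antenna that cells build when they leave the cycle. Of its 54 kept genes, 10 were at least 2-fold higher (against 8.96% of all genes kept) and 0 lower. Their median was 0.29. The transport subunit Ift27 was at 363 and 1867 (2.24 ± 0.13) and the transition zone gene Tctn1 at 170.3 and 537 (1.54 ± 0.16), and 6 of the 54 were kept only through Adriamycin. Of Tctn1's exonic bases, 25.5% are covered by exons on the opposite strand. Among signalling genes the Wnt feedback inhibitor Axin2, kept only through Adriamycin, was at 32.9 and 487 (3.77 ± 0.27). Wnt4 was at 214 and 1543 (2.73 ± 0.38) and the receptor Notch3 at 431 and 4077 (3.12 ± 0.25).

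The remaining lists had medians between -0.34 and 0.11. Beside their counts, 8.96% of all genes kept were at least 2-fold higher and 8.31% lower. Of 25 kept genes of the BCL2 family and caspases, Pmaip1 and Bbc3 were at least 2-fold higher and Bok, a relative of BAX, was lower, at 967 and 205 (-2.36 ± 0.16). In the unfolded protein response 4 of 23 were at least 2-fold lower, among them the secreted factor Manf at 3781 and 1691 (-1.28 ± 0.10), and 1 was higher, the co-chaperone Dnajb9 at 399 and 883 (1.02 ± 0.14). Their median was -0.33, and 0.03 on the ribosomal protein centre. Heat shock genes had a median of 0.04, with the small chaperone Cryab at 1694 and 4885 (1.41 ± 0.11) and the mitochondrial chaperonin Hspd1 at 14065 and 6918 (-1.14 ± 0.09). Of 28 kept genes of glycolysis and hypoxia, 1 was at least 2-fold lower, the lactate exporter Slc16a3 at 864 and 196 (-2.26 ± 0.35), and the median of -0.34 was 0.02 on the ribosomal protein centre. Among 48 kept growth factor and signalling genes 7 were at least 2-fold higher and 2 lower, and of 22 kept noncoding RNAs 2 were higher and 5 lower. Of the 48, 4 were kept only through Adriamycin. Of the 22, 1 was kept only through Adriamycin and 1 only through vehicle. Neat1, the scaffold of nuclear paraspeckles, was at 4905 and 16141 (1.60 ± 0.13), and the host of snoRNAs Snhg4 at 676 and 229.5 (-1.68 ± 0.14).

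The highest single genes lay outside these lists. Ppp2r2c, a regulatory subunit of phosphatase 2A (chromosome 5, 36868513 to 36955078), had a wild-type mean of 6.31 with vehicle and 907 with Adriamycin (7.05 ± 0.37). The creatine kinase Ckmt1 was at 1.36 and 182 (6.94 ± 0.52) and the secreted peptidase Pm20d1 at 7.78 and 900.1 (6.73 ± 0.32). Their vehicle means are a few counts, so these folds rest on values close to 0. Next came Sec14l5 (6.46 ± 0.44), Cbln2 (5.97 ± 0.53) and Alox5, the arachidonate lipoxygenase that starts leukotriene synthesis, at 16.5 and 1123 (5.97 ± 0.31). The membrane protease St14 (matriptase) was at 28.6 and 1812 (5.86 ± 0.24), and the Notch ligand Jag2 at 9.94 and 512 (5.57 ± 0.33). Of the 995 higher genes 121 were on a list, and of the 922 lower genes 223 were.

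The same treatment in Mof knockout MEFs was compared next. Of the genes kept, 686 (6.18%) were at least 2-fold higher and 698 (6.29%) at least 2-fold lower in the knockout, on the wild-type centre. Both genotypes had 588 genes at least 2-fold higher, which is 59.1% of the wild-type and 85.7% of the knockout set. At least 2-fold lower in both were 610, or 66.2% of the wild-type and 87.4% of the knockout set. Of the 995 wild-type genes, 982 (98.7%) were also above 0 in the knockout, and of the 922, 920 (99.8%) were below it. The difference of the drug ratios equals the difference of the fold changes in the authors' deposited tables, which do carry errors. It was tested for 11093 genes with a two-sided z test on the deposited standard errors and Benjamini-Hochberg adjustment, and 1053 (9.49%) passed an adjusted p of 0.05. In the knockout the drug ratio was lower for 508 of these (4.58%) and higher for 545 (4.91%). Genes chosen by their wild-type ratio share the wild-type error with this difference, which leans towards smaller values in the knockout, and the counts for such genes are to be read with that. Among the 995 genes, 269 passed, 264 of them with a smaller ratio in the knockout. Among the 922, all 234 that passed had a higher ratio there. With the standard errors enlarged by 25% the 2 counts over all genes were 196 lower and 146 higher.

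Interferon-stimulated genes differed between the genotypes. Of the 30 kept, 26 had a lower drug ratio in the knockout (against 4.58% of all genes) and 0 a higher one. Members were kept by the mean over both genotypes, so a gene low in wild type, such as Ifi44, could enter through its knockout level. A high knockout level with vehicle goes with a lower knockout ratio, so the count leans that way. The knockout median was -0.09, with 1 gene at least 2-fold higher (against 6.18% of all genes kept) and 2 lower (against 6.29%). Irf7 had knockout means of 385 with vehicle and 626 with Adriamycin (0.58), and the difference from wild type was -3.22 ± 0.45 (SE, adjusted p = 6.89e-10 by the z test on DESeq2's values). For Isg15 the knockout means were 1031 and 705, a difference of -3.01 ± 0.60 (adjusted p = 4.09e-05). Ifi44 was at 311 and 179.7 in the knockout and at 6.85 and 45.0 in wild type, a difference of -3.51 ± 0.51. In each of these genes the knockout level with vehicle lay above the wild-type level with Adriamycin. Summed over the list, the 4 means were 8637 and 21450.4 in wild type and 30494 and 37429 in the knockout. The macrophage markers summed to 5839.6 and 7604 in the knockout, and their part in the difference was not tested.

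**Figure D3:**
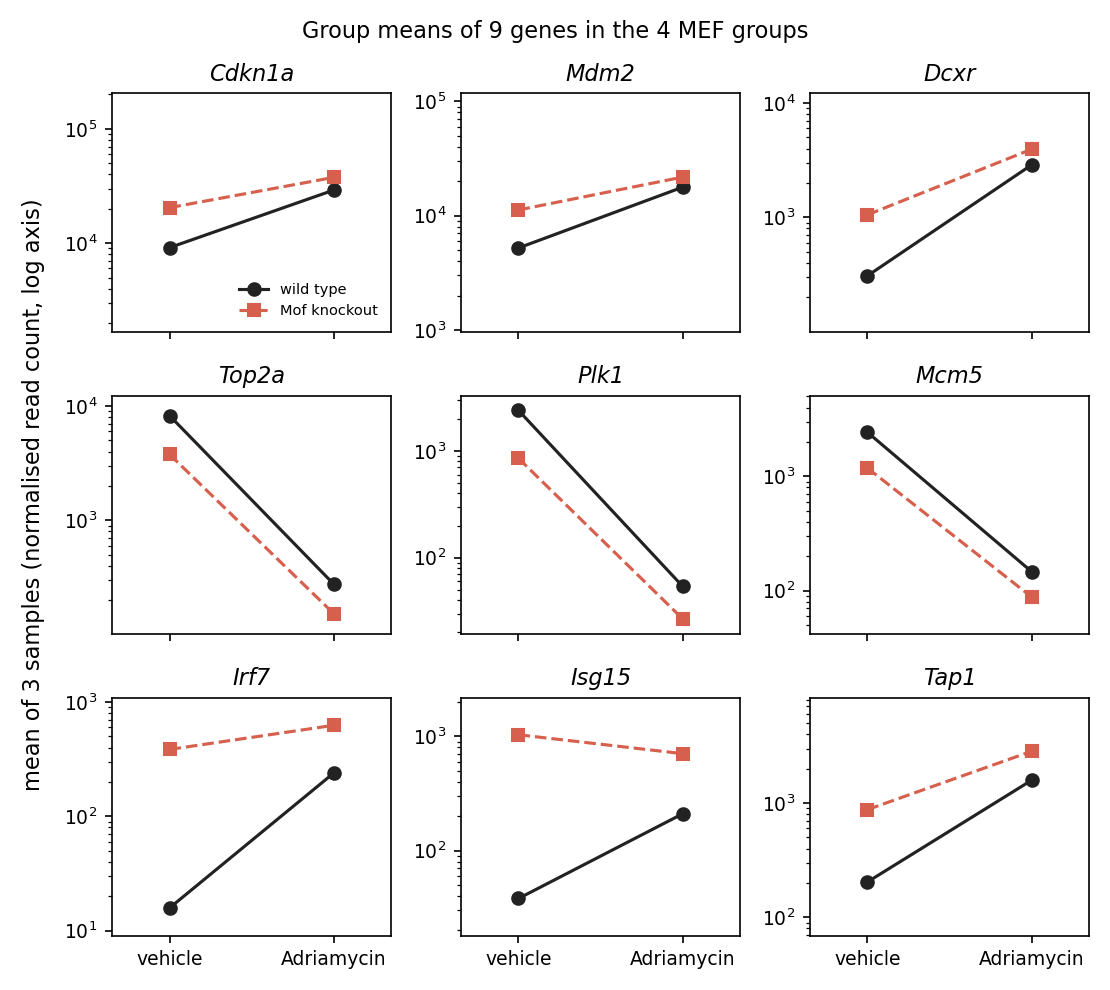
Mean of 3 samples in normalised read counts (y axis, log scale) with vehicle and Adriamycin (x axis) for 9 genes in wild-type (black circles, solid) and Mof knockout MEFs (red squares, dashed); the files hold no value per sample, so no error bar is drawn. Irf7 and Isg15 start at 15.8 and 38.1 in wild type and at 385 and 1031 in the knockout, while Top2a, Plk1 and Mcm5 are lower with Adriamycin in both.

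p53 targets had smaller drug ratios in the knockout, where the median was 0.64 and 8 of 46 were at least 2-fold higher (against 6.18% of all genes kept). The difference passed for 21 with a lower knockout ratio (against 4.58% of all genes tested) and 1 with a higher one (against 4.91%). Cdkn1a had knockout means of 20439 and 37572 (0.76), and the difference from wild type was -0.79 ± 0.13 (adjusted p = 1.71e-07, same z test). For Mdm2 they were 11232 and 21767, a difference of -0.81 ± 0.14 (adjusted p = 1.10e-06). Trp53inp1 differed by -1.80 ± 0.20 (adjusted p = 3.12e-16). With Adriamycin the knockout means of these 3 genes were still the higher ones, so the smaller ratio goes with a higher vehicle level. The 1 target with a higher knockout ratio was Trp53 (difference 0.40 ± 0.12, adjusted p = 0.0197). For Perp the difference was -1.21 ± 0.50 and did not pass (adjusted p = 0.0988). Of the 13 histone genes, 12 had a lower ratio in the knockout (against 4.58% of all genes tested). Among them was Hist1h1c at 1408 and 3108 (difference -1.63 ± 0.20, adjusted p = 1.28e-13, same z test).

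Mitotic genes were lower with Adriamycin in both genotypes, with a knockout median of -3.60 and 56 of 60 at least 2-fold lower (against 6.29% of all genes kept). The difference passed for 26 genes, all with a higher ratio in the knockout (against 4.91% of all genes tested). Summed over the list, the means with vehicle and Adriamycin were 123477 and 8965 in wild type. In the knockout they were 51725 and 8058, so over the list the higher ratio goes with a lower vehicle level. Cep128, a centriolar protein outside the list, was at 288 and 88.0 in wild type and at 83.4 and 124 in the knockout, with ratios of -1.83 and 0.46 (difference 2.29 ± 0.31, adjusted p = 8.75e-11). Fam83d, which brings casein kinase to the spindle, was at 836 and 387 in wild type and at 449.7 and 718 in the knockout (difference 1.78 ± 0.25, adjusted p = 2.52e-10). These 2 were lower in wild type and higher in the knockout. For most of the lead genes no difference passed: Plk1 differed by 0.48 ± 0.41 (adjusted p = 0.529), Cdk1 by 0.47 ± 0.29 (0.329) and Top2a by 0.27 ± 0.30 (0.640), errors that leave room for a difference of the size seen in the genes that passed. Among replication genes 10 of 50 had a higher ratio in the knockout (against 4.91% of all genes tested) and 0 a lower one. Mcm5 differed by 0.30 ± 0.31 (adjusted p = 0.620, same z test). Replication gene means summed to 79110.3 with vehicle and 17357 with Adriamycin in wild type. In the knockout they summed to 48737 and 16153, again with the lower vehicle level. Sterol synthesis genes gave 0 of 28 differences in either direction, with medians of -1.05 in wild type and -0.91 in the knockout.

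**Figure D4:**
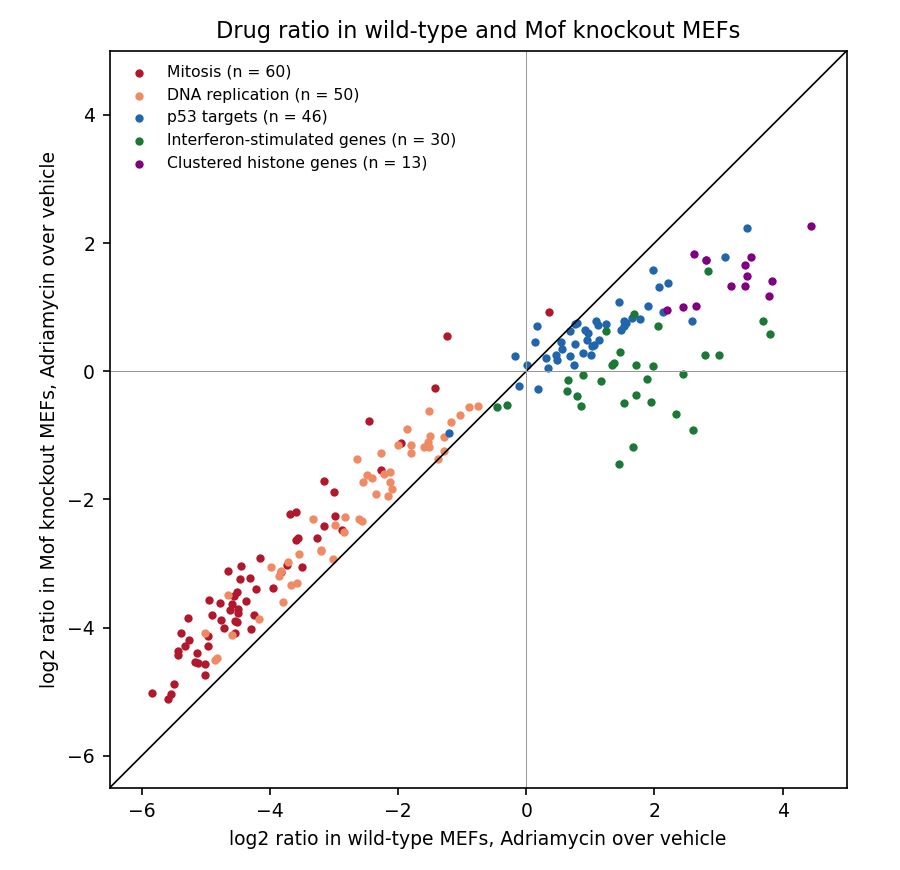
Drug ratio in wild-type MEFs (x axis) against that in Mof knockout MEFs (y axis), both log2 of Adriamycin over vehicle on the wild-type centre; points are members of 5 gene lists and the diagonal marks equal ratios. Interferon-stimulated genes (medians 1.67 and -0.09) and clustered histone genes (3.41 and 1.41) lie below the diagonal, and mitosis genes (-4.50 and -3.60) lie along and above it. Of the 13 histone genes 8 were kept only through Adriamycin, and of the 60 mitosis genes 35 only through vehicle.

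The median drug ratio moved little with the size or base composition of genes, and the share of genes at least 2-fold higher moved more. In 10 bins with equal numbers of genes, the median ratio went from 0.11 in the shortest genes to -0.06 in the longest by genomic span, and from 0.00 to 0.06 from the lowest to the highest GC content of the longest transcript. By level it went from 0.24 in the bin of lowest mean count to -0.17 in the highest. The share at least 2-fold higher went from 4.79% in the bin of lowest GC content to 13.2% in the highest, and from 11.6% in the shortest genes by exonic length to 5.06% in the longest. By level it went from 24.1% in the lowest bin to 3.87% in the highest, so that the low bins hold a larger part of the 995. Of 181 protein-coding genes with 1 exon, 27.1% were at least 2-fold higher, and of the 168 that are not histone genes 23.2% were.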

How the data were processed

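Poly(A) RNA of MEFs was sequenced, with 3 samples a group. The submitters' processing notes list DESeq2 1.4.1, featureCounts 1.4.5-p1 and TopHat2 2.0.13 with the build GRCm38, without roles or settings. The authors deposited 1 table per treatment. Each holds the mean normalised count signal over its 6 samples, the log2 fold change with its standard error, the Wald statistic (a score) and p-values, per the file headers. Values per sample and depth per library were not analysed here, so the drug ratio carries no SD and no test.

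The wild-type mean was taken as 2 × mean/(1 + 2 to the power of the log2 fold change), and the knockout mean as the remainder. The direction of the fold change was read from Kat8. Genes with a mean of at least 100 in either table were kept, and log2 ratios were recentred on their median. The approximate error is the root of the mean of the squared standard errors of the tables. The difference between genotypes was tested by a z test on the deposited standard errors (scipy 1.17.1, Python 3.11.15), adjusted over 11093 genes, after a run on simulated data. Coordinates are from GENCODE M21 and promoters from RefSeq.

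The members and the 36 gene lists were chosen with earlier results of these data known. Of 1257 list entries, 2 could not be matched to a gene in the tables. Genes were named by a rule: a set of key genes, the 15 highest and 15 lowest with a mean of at least 100 in their higher treatment, the 4 highest and 4 lowest of each list, and the 5 largest differences in each direction. Some genes that the rule names are not reported here. Other list members named were chosen after their values were seen. Alternatives covered the centre, the filter, the fold, the pseudocount, shrinkage and the standard error.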

Additional observations from a re-analysis of the deposited data

Results flagged for a closer look

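These results stand here because the drug ratio differed between wild-type and Mof knockout MEFs by the z test on the deposited standard errors, with an adjusted p below 0.05. Over all genes tested, 508 had a lower ratio in the knockout and 545 a higher one. By list, the ratio was lower in the knockout for 26 of 30 interferon-stimulated genes, 21 of 46 p53 targets, 12 of 13 clustered histone genes and 10 of 59 lysosomal genes, against 4.58% of all genes tested. It was higher in the knockout for 26 of 60 mitosis genes, 10 of 50 DNA replication genes, 11 of 81 ribosomal protein genes and 9 of 23 genes of the unfolded protein response, against 4.91%. The count for interferon-stimulated genes leans towards lower ratios through the filter, as given above.

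The largest differences towards a lower ratio in the knockout were those of Ifi44 (-3.51), the synaptic vesicle protein gene Svop (-3.33), Irf7 (-3.22), Isg15 (-3.01) and Sec14l5 (-3.01). Svop had wild-type means of 12.5 with vehicle and 447 with Adriamycin, and knockout means of 211 and 747. Towards a higher ratio they were those of Cep128 (2.29), the nuclease gene Eme1 (1.93), Phf19 (1.93), a Polycomb partner, Col15a1 (1.80) and Fam83d (1.78). Phf19 was at 405 and 12.8 in wild type and at 114 and 13.8 in the knockout. The wild-type means enter both the wild-type ratio and the difference, and these genes were picked for the size of the difference.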

How the results depend on the processing

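Of 190 alternative values for the counts and centres, 153 stayed within 1.5 times (or the stated error) of the reported value, 37 moved and 0 reversed; of 616 for single genes and list medians, 377 stayed, 235 moved, 3 weakened and 1 reversed, where reversed means that a value of at least 2-fold, or a difference that passed its test, changed sign. Smaller values whose sign turned are counted with those that stayed or moved. The centre, 0.12, was -0.24 on ribosomal protein genes, -0.03 on reference genes and -0.02 with equal sums. At least 2-fold higher and lower were 1824 and 558 genes on the ribosomal protein centre, 644 and 602 with a mean of 100 in both tables, 2010 and 1393 with 10 in either, and 520 and 494 with 500 in either. At 1.5-fold they were 2036 and 1958, and at 4-fold 306 and 295. Matrix genes lower, 11 in the report, were 5 without recentring, on reference genes or with equal sums, 4 on ribosomal protein genes and 7 at 500. On ribosomal protein genes 26 lysosomal and 18 cilium genes were higher. With means over both genotypes 3 interferon-stimulated and 6 cilium genes were higher. With 100 in both tables, 5 histone genes were higher, and 24 mitosis and 2 recombination genes lower; with 10 in either, 37 histone genes were higher and the median of skeletal muscle markers turned from -1.49 to 0.37. With 500 in either, 4 histone, 9 interferon-stimulated and 4 cilium genes were higher and 4 recombination genes lower, since fewer genes were tested. There, 13 interferon-stimulated and 4 histone genes had a lower ratio in the knockout. With standard errors enlarged by 25%, 196 genes were lower and 146 higher in the knockout, 13 of them mitosis genes, and Col15a1 and Phf19 no longer passed. Phf19 also did not pass with shrinkage undone, at 2.25. Other causes of these moves were not tested.

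No paired analysis was possible because the files hold no value per sample, and for the same reason leaving out each replicate was not run. The largest standard error was 0.710 in the vehicle table and 0.600 in the Adriamycin table, and for genes with a mean under 1 it was 0.685 and 0.546. The deposited fold changes may therefore be shrunken, which would draw wild-type and knockout means together. Shrinkage that is stronger under 1 treatment, as where counts are low, would also move the difference between genotypes. The simulated data were drawn without shrinkage and could not show this.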

Other observations

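A few genes outside the lists that are known from epithelia are given here because they were high with Adriamycin in wild-type MEFs, and they stand for no group. The transcription factor Grhl3 had a wild-type mean of 4.12 with vehicle and 152 with Adriamycin (5.09). The laminin gene Lama3 was at 5.67 and 166 (4.75), its receptor subunit Itgb4 at 29.7 and 789 (4.61) and the desmosomal gene Dsp at 87.8 and 1303 (3.77). Of the 4 epithelial markers kept from the list, 1 was at least 2-fold higher and 1 lower: Krt19 was at 864 and 2700.1 (1.52) and Krt8 at 129.5 and 53.5 (-1.39). Genes of leukotriene synthesis and reception divided: beside Alox5, the receptors Ltb4r1 and Ltb4r2 were at 9.33 and 142 (3.81) and at 12.2 and 157 (3.57), while the hydrolase gene Lta4h was at 1798 and 1528 (-0.36).

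Families of genes that share a symbol stem, also chosen after their values were seen, included nucleoporins (stem Nup), of which 7 of 20 kept were at least 2-fold lower and 19 lay below the median gene, with a median of -0.86. The exosome genes (stem Exosc) had a median of -0.75 over 9 genes, the Lsm proteins of RNA processing -0.64 over 12, and the Adamts proteases -1.03 over 10, 5 of them at least 2-fold lower. All 13 genes of the stem Ndufa, subunits of respiratory complex I, lay above the median gene, with a median of 0.46.

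In MPC5 podocytes, differentiated kidney filter cells at passage 20 that carried a scramble construct, Adriamycin was given at 0.25 µg/ml for 24 h and 1442 genes were in both deposited tables, so the values stand beside those of MEFs without a comparison. The podocyte ratios come from the scramble means and were recentred by -0.23, a centre of their own over those 1442 genes. Mdm2 had a drug ratio of 1.08 in podocytes and 1.65 in MEFs, Dcxr 2.66 and 3.10, Irf7 2.22 and 3.80, and Usp18 5.07 and 3.70. For Ifit3 the ratios were -3.42 in podocytes and 1.67 in MEFs, and for Gdf15, a stress cytokine, -1.21 and 1.01. Mki67 had -0.55 and -5.49, and the helicase gene Mcm6 had 0.63 and -3.57.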
